A study of Homo sapiens with 12 samples.

Results

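PRSS8 (prostasin), ST14 (matriptase), SPINT1 (hepatocyte growth factor activator inhibitor type 1) and SPINT2 (its type 2 relative) were followed as 4 of the 58302 genes with a value in the files. PRSS8 was chosen by its lower level after NUF2 knockdown in both cell lines of the study. The other 3 genes were added because their proteins act with prostasin at the epithelial cell surface, though earlier results of these data were known. RNA was sequenced from 769-P and ACHN cells, established human renal carcinoma lines, 48 h after transfection with siNUF2 or siControl. The siNUF2 was a mix of 2 siRNAs against NUF2, a subunit of the kinetochore complex that holds chromosomes to the spindle, and siControl was a negative control siRNA. Each of the 4 groups had 3 libraries, 12 in all, and the labels do not say whether the repeats were separate cultures, so p-values measure only the spread between these libraries. The groups of a line differ in the siRNA only, and the labels name no untransfected group.

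Prostasin is a trypsin-like serine protease that is held at the surface of epithelial cells by a lipid anchor. It is best known in the kidney, where it raises the activity of the epithelial sodium channel, and in the skin, where it is needed for the barrier. Matriptase is a transmembrane serine protease of the same cells, and each protease can bring about the activation of the other. SPINT1 and SPINT2 encode transmembrane Kunitz-type inhibitors that bind and hold both proteases in check, so the level of protease is usually read together with that of its inhibitors.

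The stretches of coding sequence that carry the function of each gene are shown to place the members in their 2 families. For the proteases, the 30 bases around the active site are given, with the codon of the catalytic serine in capitals. It is residue 238 of prostasin and residue 805 of matriptase. Sequences run 5′ to 3′ and were read from GENCODE release 29 transcripts, on build GRCh38.
PRSS8: tgccagggtgacTCTgggggcccactctcc
ST14: tgccagggtgatTCCgggggacccctgtcc
The PRSS8 stretch spans the junction of exons 5 and 6 of PRSS8-201 (chr16:31132312-31132434, reverse strand). The ST14 stretch spans the junction of exons 18 and 19 of ST14-201 (chr11:130209573-130209685, forward strand).

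For the inhibitors, the 30 bases around a conserved cysteine of each Kunitz domain are given, with the cysteine codon in capitals. Both genes encode 2 such domains.
SPINT1 domain 1: ttcgtttatggaggcTGCttgggcaacaag
SPINT1 domain 2: tttacctatggtggtTGTtacggcaacaag
SPINT2 domain 1: tttgtgtatgggggcTGTgacggaaacagc
SPINT2 domain 2: ttcatctatggaggcTGCcggggcaataag
The stretches of SPINT1 lie in exon 5 (chr15:40853800-40853829) and exon 9 (chr15:40855981-40856010) of SPINT1-201, on the forward strand. Those of SPINT2 lie in exon 2 (chr19:38283716-38283745) and exon 5 (chr19:38290208-38290237) of SPINT2-201, also on the forward strand. The longest run of bases shared by transcripts of any 2 of the 4 genes was 16 bases, found between PRSS8 and ST14 and between SPINT1 and SPINT2.

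The 4 genes lie on 4 chromosomes of GRCh38. PRSS8 (ENSG00000052344) is at chr16:31131433-31135762 on the reverse strand, and PRSS8-201 has 6 exons and encodes 343 residues. ST14 (ENSG00000149418) is at chr11:130159562-130210376 on the forward strand, with 19 exons and 855 residues. SPINT1 (ENSG00000166145) is at chr15:40844018-40858207 and SPINT2 (ENSG00000167642) at chr19:38244035-38292614, both on the forward strand, and their transcripts SPINT1-201 and SPINT2-201 encode 529 and 252 residues.

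The deposited values were FPKM, read counts divided by exon length and by library size, so that levels of different genes can be set side by side per length. Reads recovered from them came to between 29244017 and 38864844 per library, and every value of the 4 genes was a whole number of reads. NUF2 itself was at 3.01 to 4.17 FPKM with siNUF2 and 17.8 to 19.4 with siControl in 769-P cells, and at 2.16 to 5.14 against 11.6 to 15.0 in ACHN cells. Of 9 markers of renal carcinoma cells, 7 had a mean of at least 0.5 FPKM in each group, though not the same 7 in both lines. CA9 was under that level in every group, NDUFA4L2 in 769-P cells only and CDH6 in ACHN cells only. The 9 markers of immune, endothelial and stromal cells summed to 0.19 to 0.32 FPKM in 769-P cells but 1.5 to 6.23 in ACHN cells, with CD3E at 0 in every library. In ACHN cells, libraries with the same replicate number moved together. Those numbered 2 had the lowest sum of renal carcinoma markers (278 and 283 FPKM against 419 to 454 in the other four) and the highest sum of markers of other cell types (5.12 and 6.23 against 1.5 to 2.41).

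The baseline of this small network differed between the lines mainly in its inhibitors. In 769-P cells under siControl, PRSS8 stood at 2.78 ± 0.215 FPKM (SD, n = 3) beside SPINT2 at 84.3 ± 6.46, while SPINT1 was at 0.0744 ± 0.0291 and ST14 at 0.0121 ± 0.00373. In ACHN cells under siControl, PRSS8 stood at 2.05 ± 0.490 FPKM beside SPINT1 at 2.57 ± 0.513, while SPINT2 was at 0.156 ± 0.0709 and ST14 at 0.0176 ± 0.00446. SPINT2 ranked 474 from the top of the 28957 genes above 0 in 769-P control cells. It made up 99.9% of the summed inhibitor FPKM there and 5.73% in ACHN control cells.

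**Figure D1:**
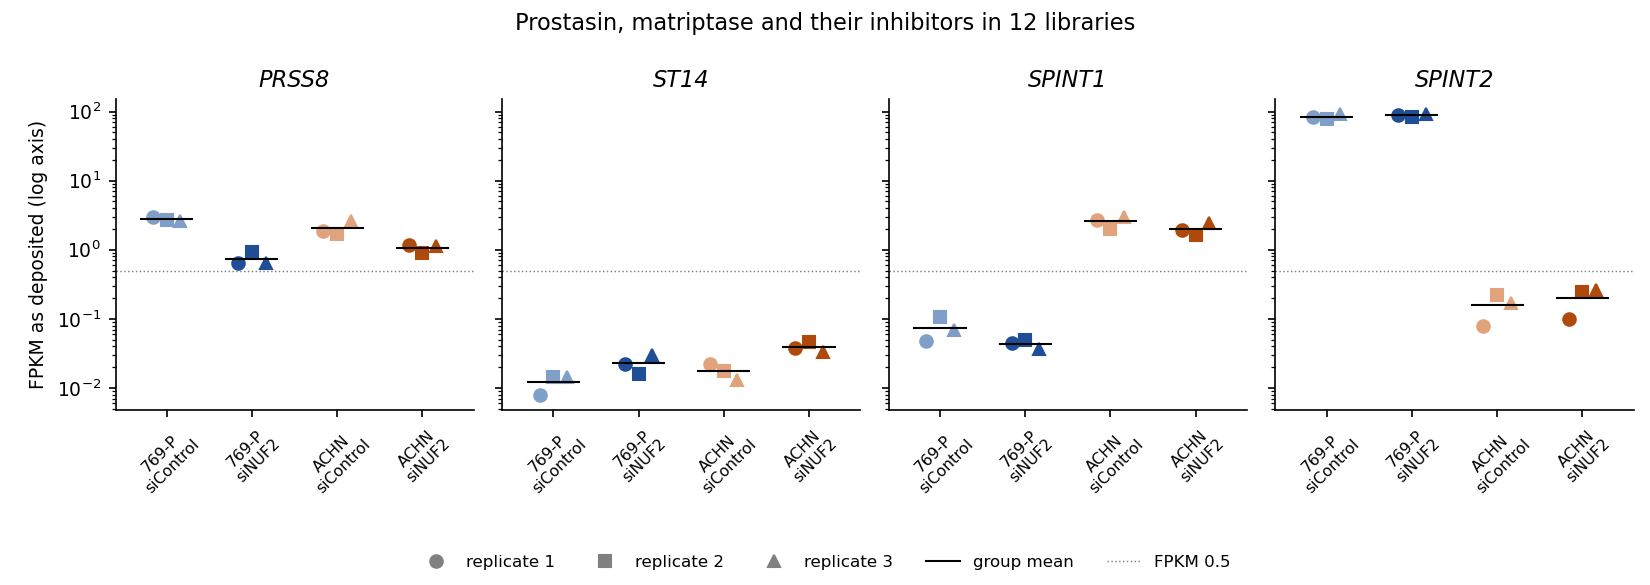
FPKM as deposited (log axis) of PRSS8, ST14, SPINT1 and SPINT2 in the 12 libraries, with 1 point per library, symbols for the replicate number, a line at each group mean and a dotted line at FPKM 0.5. SPINT2 lies between 78.1 and 93.5 in all 769-P libraries and SPINT1 between 1.65 and 2.99 in all ACHN libraries, each being under 0.5 in the other line, and ST14 is under 0.05 everywhere.

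PRSS8 values are given as a description, since the gene was picked on them. In 769-P cells PRSS8 was at 3.02, 2.68 and 2.63 FPKM in siControl replicates 1, 2 and 3, and at 0.646, 0.935 and 0.637 in siNUF2 replicates 1, 2 and 3. In reads, these were 268, 259 and 256 against 61, 81 and 59. All 3 knockdown libraries lay below all 3 control libraries, at a mean of 26.6% of the control. The log2 difference, on the scale of log2(scaled FPKM + 0.1) used for all fits, was -1.78 (SE 0.171, 95% interval -2.18 to -1.37), and within the 3 pairs of equal replicate number it was -2.06, -1.41 and -1.86.

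In ACHN cells PRSS8 was at 1.86, 1.68 and 2.61 FPKM in the siControl libraries and at 1.15, 0.892 and 1.12 in the siNUF2 libraries, or 176, 195 and 276 reads against 127, 93 and 115. Again no knockdown library reached the level of a control library, and the mean was 51.4% of the control. The log2 difference was -0.87 (SE 0.206, 95% interval -1.37 to -0.37), and within the pairs it was -0.63, -0.85 and -1.14. The third siControl library was the highest, and without it the log2 difference was -0.70.

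Over the 4 groups PRSS8 ran from 769-P siControl through ACHN siControl and ACHN siNUF2 (1.05 ± 0.141 FPKM, n = 3) to 769-P siNUF2 (0.739 ± 0.170, n = 3). The control groups were neighbours whose ranges overlapped once the lines were scaled together, with a log2 difference of -0.40 (SE 0.185) for ACHN less 769-P. The ranges of the siNUF2 groups of both lines overlapped as well. The response was smaller in ACHN than in 769-P cells by 0.89 on the log2 scale (SE 0.271, 95% interval 0.29 to 1.49), which is likewise a description. All these differences draw on the same control libraries.

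Matriptase transcripts were nearly absent. ST14 gave 1, 2 and 2 reads in the 769-P siControl libraries and 3, 2 and 4 in the siNUF2 libraries. In ACHN cells it gave 3, 3 and 2 reads with siControl and 6, 7 and 5 with siNUF2. Summed by group this was 5 against 9 reads in 769-P (exact Poisson 95% intervals 1.62 to 11.7 and 4.12 to 17.1) and 8 against 18 in ACHN cells (3.45 to 15.8 and 10.7 to 28.4), and the intervals, which cover counting error only, overlap in both lines.

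ST14 was under the filter of 0.5 FPKM in every fit. The siNUF2 libraries lay above the siControl libraries in both lines after scaling. In 769-P cells siNUF2 replicate 2 and siControl replicates 2 and 3 had 2 reads each, and only library size and scaling set them apart. The exact two-sided permutation p was 0.1 in each line, the smallest that 3 libraries against 3 allow. With 3 libraries against 3 this test cannot reach 0.05 at any depth. Between the lines under siControl the ranges overlapped (exact permutation p = 0.3).

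SPINT2, the inhibitor that dominated in 769-P cells, was at 83.7, 78.1 and 91.0 FPKM in the 769-P siControl libraries and at 89.3, 82.4 and 93.5 in the siNUF2 libraries. The groups overlapped. Each siNUF2 library was slightly above the siControl library of the same number, and the log2 difference was 0.09 (SE 0.076, 95% interval -0.09 to 0.27, limma adjusted p = 0.520, n = 3 against 3). SPINT2 was the only member other than PRSS8 tested in 769-P cells, and it was not called. Of the 14163 genes tested there, 4.53% were called lower and 5.46% higher at an adjusted p under 0.05. Where the replicate number was kept as a block, 13.6% were called lower and 13.9% higher, and SPINT2 was still not called.

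In ACHN cells SPINT2 gave 13, 44 and 31 reads with siControl (0.0797, 0.220 and 0.169 FPKM) and 19, 44 and 47 with siNUF2 (0.0999, 0.244 and 0.264 FPKM). These values were under the filter, overlapped, and had an exact permutation p of 0.5. In both groups replicate 1 was the lowest.

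SPINT1, the leading inhibitor in ACHN cells, was at 2.72, 2.00 and 2.99 FPKM in the ACHN siControl libraries and at 1.92, 1.65 and 2.43 in the siNUF2 libraries, with replicate 2 the lowest in each group. The groups overlapped, while every siNUF2 library was under the siControl library of its number. The log2 difference was -0.33 (SE 0.205, 95% interval -0.83 to 0.17) and did not pass the test (limma adjusted p = 0.801). With the replicate block the interval was -0.54 to -0.12 and the adjusted p 0.0623, the lowest over the 13 alternatives, which reached up to 0.964. None of the 15113 genes tested in ACHN cells passed in limma without the block (0.0%), with 1226 at an unadjusted p under 0.05. With the block 5.34% were called lower and 6.82% higher, and SPINT1 was not among them.

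In 769-P cells SPINT1 gave 5, 12 and 8 reads with siControl and 5, 5 and 4 with siNUF2. These were under the filter, and the groups overlapped (exact permutation p = 0.2). Tests of the interaction of siRNA and line did not separate the responses of SPINT1 (log2 difference of ACHN less 769-P -0.09, 95% interval -0.75 to 0.58) or SPINT2 (0.14, 95% interval -0.63 to 0.92), each with a limma adjusted p of 1.00. Both genes pass the filter of that fit through 1 line only. In the other line they lie near the pseudocount of 0.1, which shrinks any response there. The test therefore cannot decide whether the responses of the lines differ.

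**Figure D2:**
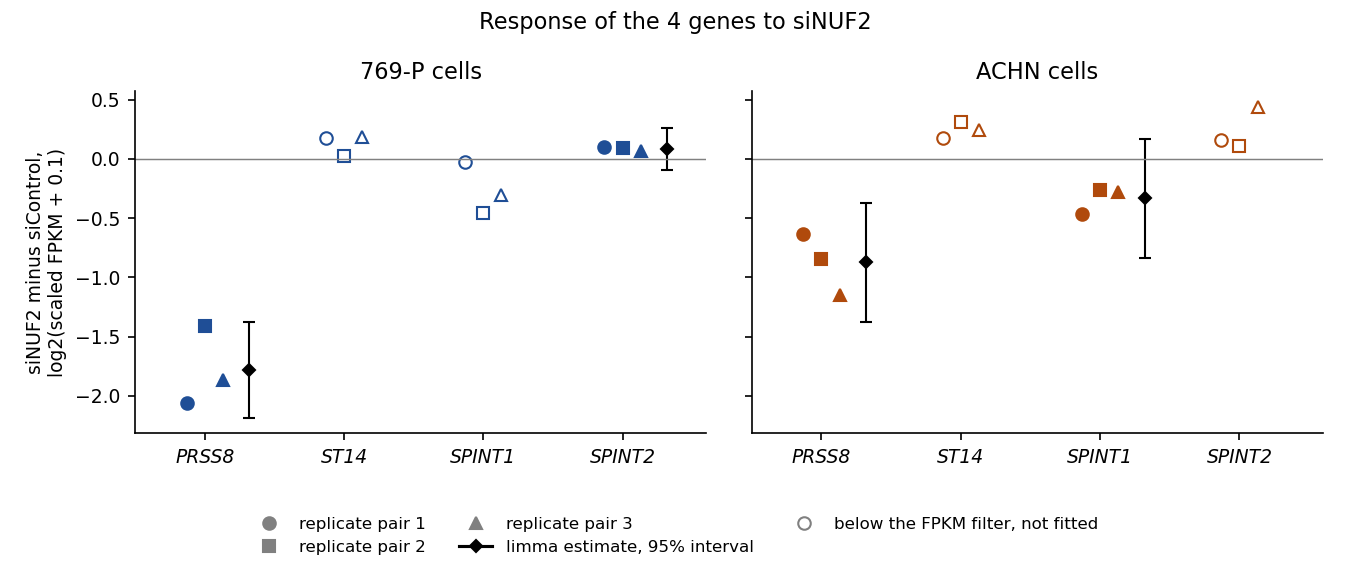
siNUF2 minus siControl in log2(scaled FPKM + 0.1) for the 4 genes in 769-P and in ACHN cells, with 1 symbol per same-numbered pair and, for genes above the FPKM filter, the limma estimate with its 95% interval. All 3 PRSS8 pairs are below -1.4 in 769-P cells and below -0.6 in ACHN cells, a description, since PRSS8 was picked for its fall. The intervals of SPINT2 in 769-P cells and SPINT1 in ACHN cells include 0.

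The line difference of the inhibitors was tested under siControl. SPINT2 was 539-fold lower in ACHN than in 769-P cells (log2 difference -8.36, SE 0.222, limma adjusted p = 1.3e-06), and SPINT1 was 34.5-fold higher (log2 difference 3.96, SE 0.233, limma adjusted p = 2.2e-05). The fold values are ratios of mean FPKM, and the log2 differences are smaller than these ratios because of the pseudocount of 0.1. Over the alternatives they ran from -9.04 to -6.18 for SPINT2 and from 1.74 to 5.01 for SPINT1. No library of one line reached the range of the other for either gene. Each gene passed the filter only through the line in which it is high, so that a difference was bound to follow for both. The exact permutation p was 0.1 for each, the smallest possible. Differences between the lines were common, with 28.9% of 15364 genes called lower and 32.2% called higher in ACHN cells.

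The balance of inhibitor to protease transcripts was read from summed FPKM of SPINT1 and SPINT2 over summed FPKM of PRSS8 and ST14. In 769-P cells the ratio was 27.6, 28.99 and 34.5 in the siControl libraries and 134, 86.7 and 140 in the siNUF2 libraries. In ACHN cells it was 1.48, 1.31 and 1.21 with siControl and 1.70, 2.02 and 2.35 with siNUF2. The siNUF2 libraries were the higher ones in both lines without overlap. PRSS8 makes up nearly all of the denominator, so the ratio repeats the values on which PRSS8 was picked and has no test.

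**Figure D3:**
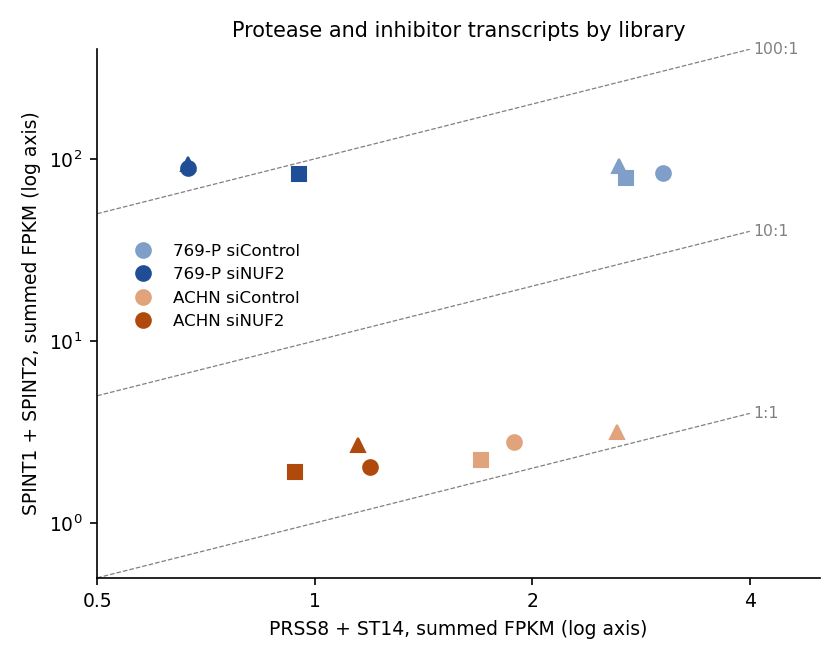
Summed FPKM of SPINT1 and SPINT2 against summed FPKM of PRSS8 and ST14 (both axes log) in the 12 libraries, 1 point per library, colours for the groups, symbols for the replicate number and dashed lines for ratios of 1, 10 and 100. The 769-P libraries run between ratios of 27.6 and 140 and the ACHN libraries between 1.21 and 2.35, with the siNUF2 libraries shifted to lower protease sums in both lines. That shift repeats the fall for which PRSS8 was picked.

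Genes near PRSS8 on chromosome 16 were looked at because the strand setting of the counting was not given in the sources used here. KAT8, a histone acetyltransferase gene on the opposite strand, ends 39 bases from the 3′ end of PRSS8. KAT8 was at 10.9 ± 0.241 FPKM with siNUF2 and 13.1 ± 0.793 with siControl in 769-P cells (log2 difference -0.25, SE 0.073, n = 3), without overlap. It was not called without the replicate block (limma adjusted p = 0.078) and was called with it (adjusted p = 0.022, the lowest over the alternatives, which reached up to 0.216). In ACHN cells KAT8 was at 9.58 ± 0.449 and 10.3 ± 0.661 FPKM, with overlap (limma adjusted p = 0.945).

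On the other side PRSS36, a gene for a secreted serine protease, lies 3162 bases away, with means of 0.122 to 0.449 FPKM. The antisense gene AC009088.3 overlaps PRSS8 over 445 bases and was listed at 0 in all groups, as were the pseudogene NDUFA3P6 and, in 3 of the 4 groups, the pseudogene AC009088.4 (0.074 FPKM in 769-P siControl). AC135050.5 and AC135050.6, both inside KAT8, had log2 differences of -0.54 and -0.22 (769-P) or -0.25 and -0.15 (ACHN), none called without the block and AC135050.5 called lower with it in 769-P cells. SPINT1-AS1 overlaps SPINT1 over 370 bases and reached 0.135 FPKM in ACHN siControl cells. PPP1R14A lies inside SPINT2 and had a mean of at most 0.019 FPKM, and AC011479.1 overlaps SPINT2 over 3464 bases and was listed at 0. Reads of overlapping genes cannot be told apart without strand.

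Genes with a pattern most like each member were found by the root mean square difference over the 12 libraries in log2(scaled FPKM + 0.1), after taking out each gene's own mean, among genes tested in both lines. The nearest to PRSS8 were PPP2R1B (0.333), ARMT1 (0.357), GSKIP (0.389), TMEM165 (0.389) and PGM2 (0.397), beside a spread of 0.728 for PRSS8 itself. Their log2 differences were -0.85 to -1.35 (769-P) and -0.61 to -1.04 (ACHN). As these genes were found by likeness to PRSS8 in the same libraries, their lower values with siNUF2 follow from the choice. PPP2R1B, a scaffold subunit of protein phosphatase 2A, was at 2.41 against 6.41 FPKM in 769-P cells and 4.22 against 7.53 in ACHN cells.

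The nearest to SPINT2 were CLDN2 (0.583), DPYSL3 (0.725), LGALS2 (0.966), CLDN4 (1.11) and KBTBD11 (1.295), against a spread of 4.15. CLDN2, a tight junction claudin, was at 364 FPKM in 769-P cells and 1.86 in ACHN control cells. The nearest to SPINT1 were AFAP1L2 (0.252), GPX1P1 (0.253), SCPEP1 (0.280), HHAT (0.292) and GPR176 (0.298), against a spread of 1.98, all higher in ACHN cells. For the genes like SPINT2 and SPINT1 the direction between the lines likewise follows from how they were found. ST14 varied by only 0.130 on this scale, so CDK8 (0.071), SENP6 (0.074), EFTUD2 (0.076), RPS12 (0.081) and SEC24C (0.081) were near it as genes that vary little.

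Other genes of the pathway were taken from 6 lists of 80 genes in all. Without the block, 32 of them were tested in 769-P cells, of which 2 were called lower and 2 higher (6.25% in each direction, near the 4.53% and 5.46% of all genes tested), with a median log2 difference of -0.04 beside -0.0044 for all genes tested. In ACHN cells 40 were tested and none was called in limma (0.0% of all genes tested), with 1 at an unadjusted p under 0.05 and a median of -0.08 beside -0.0016. With the block the counts were 10 lower and 7 higher for 769-P (31.2% and 21.9%), beside 13.6% and 13.9% of all genes tested. For ACHN cells they were 5 lower and 4 higher of 40, beside 5.34% and 6.82%. The 4 calls in 769-P cells depended on single libraries. They were 3 lower and 3 higher without siControl replicate 1, 2 and 1 without siNUF2 replicate 1, and 1 and 0 without siControl replicate 2 or siNUF2 replicate 2. Without siControl replicate 3 or siNUF2 replicate 3 there were none. Calls over all genes tested in 769-P cells, 641 lower and 773 higher, fell in these fits as well. They were 172 and 275 without siControl replicate 3, and 146 and 246 without siNUF2 replicate 3. Genes named below that were called with the block in 1 line only were singled out after their values were seen.

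Of 20 membrane serine proteases and kallikreins, only TMPRSS9 was above the filter in 769-P cells, and only TMPRSS9 and KLK5 in ACHN cells. None was called. TMPRSS9, which encodes a membrane protease with several catalytic domains, was at 0.531 ± 0.153 FPKM with siNUF2 and 0.561 ± 0.186 with siControl in 769-P, and at 0.835 ± 0.150 and 0.616 ± 0.122 in ACHN cells (n = 3 each). Under siControl PRSS8 had the highest mean FPKM of these 20 genes, ST14 and itself in both lines. This is a description, since PRSS8 was picked on these libraries.

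Of 8 other inhibitors of serine proteases, 4 were tested in 769-P cells. SERPINE2 (protease nexin 1, known to inhibit prostasin) rose from 15.1 ± 1.51 to 21.8 ± 2.30 FPKM with siNUF2 (log2 difference 0.54, SE 0.111, limma adjusted p = 0.030, up to 0.817 over the alternatives, higher in 3 of 3 pairs). With the block SERPINA5 (1.80 ± 0.579 against 2.92 ± 1.04 FPKM, log2 difference -0.64) and SERPINF2 (3.94 ± 2.25 against 8.54 ± 4.37, log2 difference -1.08) were called lower as well. SERPINA1, the alpha-1 antitrypsin gene, was at 4.41 ± 1.18 against 5.09 ± 1.66 FPKM and was not called. In ACHN cells none of 3 was called with or without the block. SERPINE2 was there at 7.14, 0.789 and 1.34 FPKM with siNUF2 and 6.01, 0.613 and 1.32 with siControl, so that the spread followed the replicate number. Within each pair the siNUF2 library was the higher one (log2 difference 0.20, not called).

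Of 16 substrates and downstream receptors, none was called in limma without the block, with 2 in 769-P and 0 in ACHN cells at an unadjusted p under 0.05. Of the epithelial sodium channel, on which prostasin acts, SCNN1A was at 0.172 to 0.437 FPKM over the group means and SCNN1B and SCNN1G were under 0.01. SCNN1D was at 0.434 to 0.517 FPKM (769-P) and 1.99 to 2.16 FPKM (ACHN). With the block F2RL1 and EGFR were called lower among 7 tested in 769-P cells (28.6%, beside 13.6% of all genes tested). In ACHN cells F2RL1, EGFR, MET and CDCP1 were called lower with the block among 11 tested (36.4%, beside 5.34% of all genes tested). F2RL1 encodes protease-activated receptor 2, which matriptase can activate. It was at 1.85 ± 0.571 FPKM with siNUF2 and 3.74 ± 0.886 with siControl in 769-P cells (log2 difference -0.98, SE 0.259, limma adjusted p without the block 0.059).

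In ACHN cells F2RL1 was at 47.1, 4.68 and 19.6 FPKM with siNUF2 and 61.1, 5.96 and 28.0 with siControl. It was lower in every pair, but libraries of different number differed far more than those of different siRNA. Its log2 difference turned positive without siControl replicate 1 (0.33) or siNUF2 replicate 2 (0.49), and that of CDCP1 without siNUF2 replicate 2 (0.074). EGFR, the epidermal growth factor receptor gene, had log2 differences of -0.48 (769-P) and -0.35 (ACHN). MET, the receptor of hepatocyte growth factor, was at 97.1 ± 10.7 against 122 ± 21.3 FPKM in ACHN cells, and CDCP1, a surface protein cleaved by matriptase, at 25.04 ± 9.41 against 30.8 ± 12.6. PLAU (urokinase) was at 32.7 ± 3.895 against 28.4 ± 3.84 FPKM in 769-P cells and 143 ± 81.5 against 169 ± 111 in ACHN cells, and was called in neither.

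Between the lines under siControl, 10 of the 11 substrates and receptors tested were called higher in ACHN cells and none lower, beside 32.2% and 28.9% of all genes tested. For 4 of the 10 no 769-P library reached the filter, so that a difference was bound to follow. They were MST1 (1.45 FPKM in ACHN and 0.282 in 769-P control cells), MST1R (0.875 and 0.0104), TLR4 (1.27 and 0.297) and FLG (8.76 and 0.0129), named after their values were seen. Of the other 7 genes, 6 were called higher. Among these, EPCAM, an epithelial adhesion protein that matriptase cleaves, was at 14.6 ± 5.30 FPKM in ACHN and 0.834 ± 0.199 in 769-P cells. Of the other inhibitors, 3 of the 4 tested were called lower in ACHN cells and none higher. One of the 3, SERPINA5, reached the filter only in 769-P cells.

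Of 12 epithelial transcription and splicing factors, none was called in limma without the block, with KLF4 in ACHN cells at an unadjusted p under 0.05. With it ELF3 was called lower in 769-P cells (5.07 ± 1.93 against 6.54 ± 2.47 FPKM, log2 difference -0.34) and KLF4 in ACHN cells (0.937 ± 0.167 against 1.63 ± 0.339, log2 difference -0.73). KLF5, the highest of the list, was at 5.88 ± 1.45 against 6.56 ± 0.663 FPKM in 769-P cells and 8.17 ± 1.83 against 7.36 ± 2.74 in ACHN cells. Of 4 repressors of the epithelial state none was called in limma, and none had an unadjusted p under 0.05. ZEB1 was at 3.56 ± 0.536 against 3.33 ± 0.758 FPKM in 769-P cells and 2.91 ± 0.711 against 2.63 ± 0.534 in ACHN cells. ZEB2 was at 0.193 ± 0.0536 against 0.302 ± 0.0252 and at 2.68 ± 0.513 against 2.98 ± 0.798.

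Of 20 epithelial junction and keratin genes, 15 were tested in 769-P cells. Without the block 2 were called lower (13.3%) and 1 higher (6.67%), beside 4.53% and 5.46% of all genes tested. In 769-P cells CLDN4 (claudin 4 of tight junctions) fell from 76.6 ± 6.46 to 46.4 ± 8.45 FPKM (log2 difference -0.72, SE 0.132, limma adjusted p = 0.022). MARVELD2 (tricellulin) fell from 3.05 ± 0.243 to 1.95 ± 0.0660 FPKM (log2 difference -0.60, SE 0.097, limma adjusted p = 0.015). PKP3 (plakophilin 3 of desmosomes) rose from 3.83 ± 0.225 to 5.36 ± 0.185 FPKM (log2 difference 0.49, SE 0.084, limma adjusted p = 0.019). Each moved the same way in 3 of 3 pairs, without overlap. Over the alternatives the adjusted p reached up to 0.078 for CLDN4, 0.066 for MARVELD2 and 0.146 for PKP3.

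With the block 5 of the 15 tested were called lower (CLDN4, MARVELD2, OCLN, CGN and CRB3) and 6 higher (PKP3, CLDN1, KRT7, KRT8, KRT18 and MAL2). These were 33.3% and 40.0%, beside 13.6% and 13.9% of all genes tested. In ACHN cells none of 17 was called without the block. With it KRT8, KRT18, MAL2 and CDH1 were called higher (23.5%, beside 6.82% of all genes tested) and none lower (beside 5.34%). KRT18 was at 90.6 ± 31.6 against 60.8 ± 22.7 FPKM in ACHN (log2 difference 0.59) and 70.8 ± 9.43 against 60.1 ± 10.8 in 769-P cells (log2 difference 0.26).

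In ACHN cells CLDN4 stood at 0.628 ± 0.122 FPKM with siNUF2 and 0.640 ± 0.168 with siControl. CDH1 (E-cadherin) was at 15.2, 7.02 and 9.88 FPKM with siNUF2 and 10.1, 5.28 and 4.69 with siControl in ACHN cells (log2 difference 0.69), and at a mean of 0.030 against 0.0018 in 769-P cells. In 769-P cells CDH1 was under the filter and not fitted, with siControl replicates 2 and 3 at 0 FPKM. The keratin KRT19 was at 277 ± 90.5 FPKM in ACHN and 0.183 ± 0.0309 in 769-P control cells. Of the 6 genes taken as general epithelial markers (CDH1, EPCAM, KRT7, KRT8, KRT18 and KRT19), 769-P control cells held only KRT7, KRT8 and KRT18 at a mean above 1 FPKM, and ACHN control cells held all 6 above 6 FPKM. The junction and keratin list did not lie one way between the lines. Of 17 tested, 5 were called higher and 4 lower in ACHN cells, beside 32.2% and 28.9% of all genes tested. The lower ones were CLDN4, DSP (15.6 FPKM in 769-P and 6.33 in ACHN control cells), MARVELD2 (3.05 and 0.954) and LLGL2 (7.96 and 2.57). For CDH1 and KRT19, both among the 5, no 769-P library reached the filter.

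**Figure D4:**
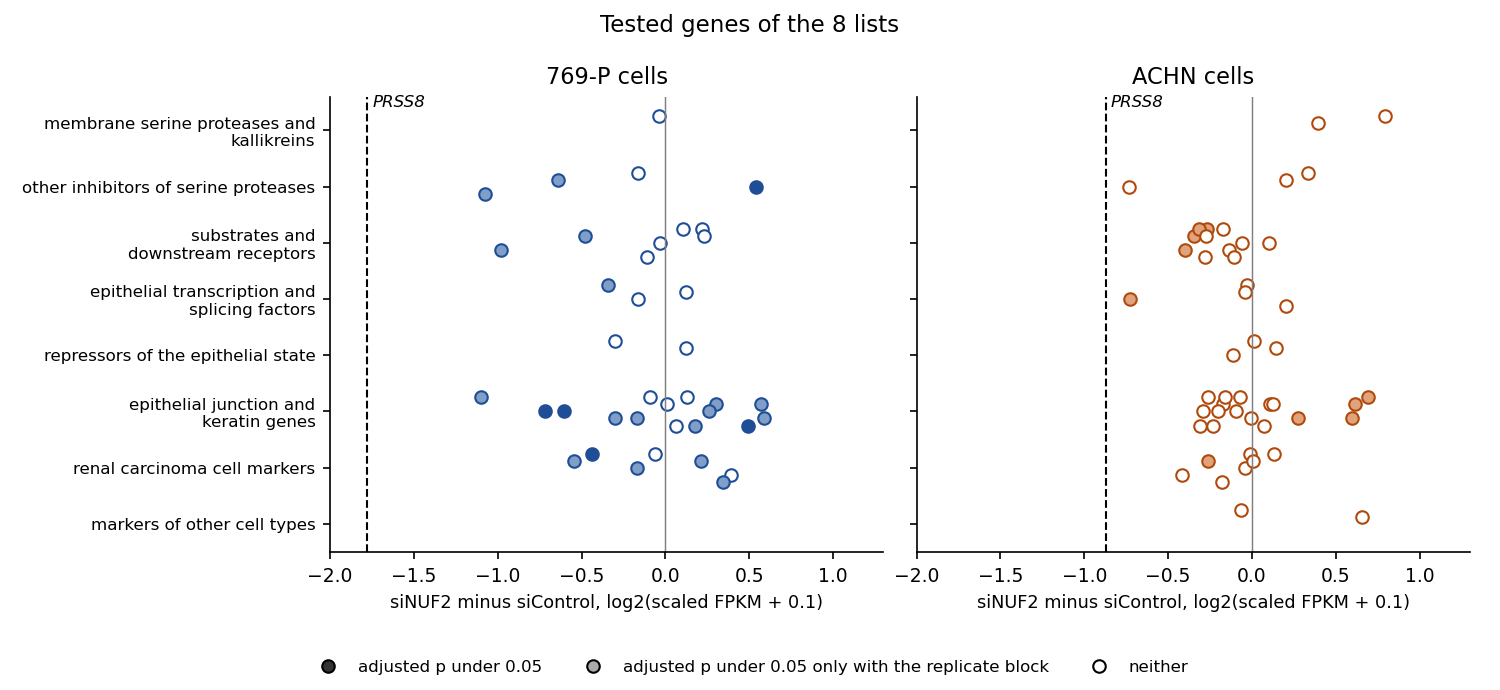
siNUF2 minus siControl in log2(scaled FPKM + 0.1) for the tested genes of 8 lists in 769-P and in ACHN cells, 1 point per gene, filled dark for an adjusted p under 0.05, pale where this holds only with the replicate block, and open otherwise. The dashed line marks PRSS8, at -1.78 for 769-P and -0.87 for ACHN cells. No tested gene of the lists lies beyond it in either line, but PRSS8 was picked for its fall, so its place is a description.

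Of 9 markers of renal carcinoma cells, 7 were tested in each line. In 769-P cells PAX8, a transcription factor of renal epithelium, fell from 66.3 ± 6.73 to 48.3 ± 3.18 FPKM (log2 difference -0.44, SE 0.091, limma adjusted p = 0.031, up to 0.706 over the alternatives) as the only one called without the block. The 1 call without the block was 14.3% of the 7 tested, beside 4.53% of all genes tested. With the block 3 were called lower (42.9%) and 2 higher (28.6%), beside 13.6% and 13.9% of all genes tested. VIM was at 165 ± 24.003 against 144 ± 16.5 FPKM in 769-P cells. Among markers of other cell types, COL1A1 (2.08 ± 1.16 against 2.26 ± 1.43 FPKM) and PDGFRB (1.22 ± 1.37 against 0.588 ± 0.511) were the 2 above the filter in ACHN cells, and neither was called. Their part in the PRSS8 values was not tested.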

How the data were processed

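RNA of 12 libraries (769-P and ACHN cells, siNUF2 or siControl, 3 replicates each) was analysed. The values the authors deposited are FPKM, 1 per gene and library. The authors filtered reads with fastp, and the submitters' processing notes name HISAT2 2.0.5, featureCounts 1.5.0-p3 and build hg38. The strand setting was not given in the sources used here. Of 58302 gene identifiers, 58039 are in GENCODE release 29, and 36305 had a value above 0. Whole reads were recovered from FPKM with its exon lengths and served for depth and counting intervals only, with 96.7% to 97.1% of genes of up to 50 reads whole within 0.02 in each library. Between 29244017 and 38864844 reads per library leave genes of a few reads limited by counting error.

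FPKM were scaled in each line, or over both lines for comparisons between them, by a trimmed mean of log ratios (30% of the log ratios and 5% of the levels trimmed). Genes that reached a scaled FPKM of 0.5 in 3 or more libraries were fitted as log2(scaled FPKM + 0.1) with limma 3.58.1 (lmFit, eBayes with trend) in R 4.3.3. P-values were adjusted by Benjamini-Hochberg over all genes tested, and calls are at an adjusted p under 0.05. PRSS8 has no p, as it was picked on these values. ST14, SPINT1 and SPINT2 also had exact two-sided permutation tests. The code was tested on simulated data. The replicate numbers in the sample titles pair the libraries within a line: after the group means were taken out, libraries of equal number correlated at 0.189 to 0.354 (769-P) and 0.463 to 0.734 (ACHN). Between the lines they did not (-0.052 to 0.051). The main fits have no block and leave this pairing out, so the spread between replicate numbers counts as error in them. In ACHN cells 0 of 15113 genes were called without the block, against 5.34% lower and 6.82% higher with it. Results with the block are given beside part of the main results.

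The 4 genes and all lists were chosen with earlier results of these data known. The genes named were the members, genes of the lists called in a line or with the block in both lines, the 2 highest genes of each list, the 5 genes most like each member, the 3 nearest genes on each side of PRSS8, genes that overlap a member, and NUF2. Alternatives were median-ratio scaling, FPKM as deposited, pseudocounts of 1 and 0.01, no filter on low values, the block, 1 fit of 12 libraries, and each library left out. Further steps and plots used Python 3.11.15, pandas 2.3.3, NumPy 2.4.6, SciPy 1.17.1 and matplotlib 3.10.9.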

Additional observations from a re-analysis of the deposited data

How the results depend on the processing

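PRSS8 stayed lower with siNUF2 in both lines under every alternative. A pseudocount of 1 brought its log2 difference to -1.11 (769-P) and -0.56 (ACHN), and the difference between the lines to 0.54, since a larger pseudocount shrinks low values. SPINT2 in 769-P cells, SPINT1 in ACHN cells and the line differences of both kept their direction and their side of the threshold under all alternatives run. For the line differences this says little, since each gene passed the filter only through the line in which it is high. The line differences ran from -9.04 to -6.18 (SPINT2) and from 1.74 to 5.01 (SPINT1), with pseudocounts of 0.01 and 1 at the ends. Leaving out a library of the line in which the gene is high gave no value, since the gene then fell under the filter. The interaction of SPINT1 turned to 0.23 with a pseudocount of 0.01 and ran from -0.24 to 0.037 with single libraries left out, and that of SPINT2 turned to -0.029 with a pseudocount of 1 and ran from -0.10 to 0.42.

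Counts of all genes tested in 769-P cells, 641 lower and 773 higher, became 1921 and 1975 with the replicate block, 269 and 442 with 12 libraries in 1 fit, and 278 and 364 with no filter on low values. With single libraries left out they ran from 146 to 498 and from 246 to 670. In ACHN cells, 0 in both directions became 807 and 1031 with the block and 35 and 125 with 12 libraries in 1 fit. For the line difference, higher calls ran from 3221 to 4382 with a library left out.

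Of the 80 genes of the lists, 2 lower and 2 higher in 769-P cells became 10 and 7 with the replicate block, 1 and 1 with no filter, and 2 and 0 with 12 libraries in 1 fit, and ran from 0 to 3 in each direction with libraries left out. In ACHN cells 0 and 0 became 5 and 4 with the block. In the line difference, 16 higher became 26 with no filter and ran from 8 to 16 with a library left out. In ACHN cells CDCP1 ran from -0.65 to 0.074 and F2RL1 from -1.32 to 0.49 with a library left out, both turning without siNUF2 replicate 2 and F2RL1 also without siControl replicate 1. The replicate block changed no call of SPINT1 or SPINT2. PRSS8 was given no p and ST14 was not fitted, so neither has a call to compare. The causes were not tested. Genes under the filter, ST14 in both lines, SPINT1 in 769-P and SPINT2 in ACHN cells, are limited by their few reads.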
